A study of Homo sapiens with 6 samples.

Results

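The genes described here are 48 genes of the cell division cycle, 23 that copy DNA (the replication genes) and 25 that carry cells through mitosis (the mitosis genes). For each gene, every site of the deposited accessibility table that lay on the gene or within 5000 bases of it was taken. This gave 189 of the 181135 sites in the table, 110 at replication genes and 79 at mitosis genes. Each gene had at least 1 site, and the largest number was 15, at RRM2. Of these sites 188 were tested, and the 1 removed for low counts lay at TPX2 with 0 to 10 reads per library. One site per gene, called its start site, stood for the promoter, and the other 140 tested sites were described apart from it.

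Accessibility was measured by ATAC-seq, in which a transposase inserts sequencing adapters into open DNA, in K562, a human line from a chronic myelogenous leukaemia. All libraries came from wild-type K562 cells in a time course with 25 nM PMA. PMA is a protein kinase C activator that drives these cells towards a megakaryocyte-like state. The groups were cells at 0 h, at 6 h and at 72 h of PMA, with 2 libraries each. No label says that the libraries of a group came from separate cultures, so the p-values here measure only the spread between these libraries.

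DNA replication begins when the origin recognition complex (ORC), CDC6 and CDT1 load the MCM helicase on DNA. CDC45 and the GINS complex then switch the helicase on, and polymerases held by the sliding clamp PCNA copy both strands from nucleotides that ribonucleotide reductase and thymidylate synthase supply. Mitosis is started by CDK1 with its cyclins and run by the Aurora and Polo kinases, the spindle checkpoint, motor proteins and the cytokinesis machinery. Promoters of replication genes are known for E2F sites and those of mitosis genes for a CHR element, often with CCAAT boxes. Maturing megakaryocytes are known to go on copying their DNA without dividing.

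The promoters of 6 genes are shown because they span the responses below: MCM6 and PLK1 had small falls, GINS2, RRM2 and KIF11 large ones, and CDK1 changed little by 6 h. Each sequence is the RefSeq window of GRCh38.p14 from 250 bases before to 50 bases after the annotated start, written 5′ to 3′ on the gene's strand. Capitals mark E2F words, CHR words and CCAAT boxes on either strand. The windows are MCM6 at chr2:135876394-135876693, minus strand, GINS2 at chr16:85688905-85689204, minus strand, RRM2 at chr2:10122318-10122617, plus strand, CDK1 at chr10:60778228-60778527, plus strand, KIF11 at chr10:92592880-92593179, plus strand and PLK1 at chr16:23678639-23678938, plus strand.
MCM6: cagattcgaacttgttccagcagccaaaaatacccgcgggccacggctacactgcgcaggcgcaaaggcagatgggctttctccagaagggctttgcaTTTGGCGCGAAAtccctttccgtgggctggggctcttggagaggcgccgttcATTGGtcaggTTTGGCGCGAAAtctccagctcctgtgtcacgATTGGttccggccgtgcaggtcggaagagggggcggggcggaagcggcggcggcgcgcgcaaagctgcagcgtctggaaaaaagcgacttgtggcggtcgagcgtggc
GINS2: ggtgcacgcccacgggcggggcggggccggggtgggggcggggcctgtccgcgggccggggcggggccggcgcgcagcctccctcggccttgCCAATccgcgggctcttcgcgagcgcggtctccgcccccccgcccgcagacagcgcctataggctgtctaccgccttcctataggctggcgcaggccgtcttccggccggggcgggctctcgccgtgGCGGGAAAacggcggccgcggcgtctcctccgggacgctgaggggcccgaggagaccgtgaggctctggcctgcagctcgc
RRM2: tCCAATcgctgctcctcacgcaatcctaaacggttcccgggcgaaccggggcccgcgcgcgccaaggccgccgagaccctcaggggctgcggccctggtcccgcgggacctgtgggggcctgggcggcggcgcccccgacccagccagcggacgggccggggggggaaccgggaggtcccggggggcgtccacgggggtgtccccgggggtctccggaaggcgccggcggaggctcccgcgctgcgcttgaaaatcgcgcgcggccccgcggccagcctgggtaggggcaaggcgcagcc
CDK1: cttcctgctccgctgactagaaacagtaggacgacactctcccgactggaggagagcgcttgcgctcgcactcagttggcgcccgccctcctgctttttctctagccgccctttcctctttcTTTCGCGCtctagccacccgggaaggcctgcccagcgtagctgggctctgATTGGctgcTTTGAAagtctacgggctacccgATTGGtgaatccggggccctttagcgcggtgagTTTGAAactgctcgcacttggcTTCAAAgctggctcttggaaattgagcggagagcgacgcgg
KIF11: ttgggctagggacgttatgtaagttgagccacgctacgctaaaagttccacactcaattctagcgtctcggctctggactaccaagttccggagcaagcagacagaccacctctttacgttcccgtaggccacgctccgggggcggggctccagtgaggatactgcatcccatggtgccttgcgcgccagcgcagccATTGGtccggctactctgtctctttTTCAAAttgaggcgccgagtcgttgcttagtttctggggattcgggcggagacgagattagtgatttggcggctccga
PLK1: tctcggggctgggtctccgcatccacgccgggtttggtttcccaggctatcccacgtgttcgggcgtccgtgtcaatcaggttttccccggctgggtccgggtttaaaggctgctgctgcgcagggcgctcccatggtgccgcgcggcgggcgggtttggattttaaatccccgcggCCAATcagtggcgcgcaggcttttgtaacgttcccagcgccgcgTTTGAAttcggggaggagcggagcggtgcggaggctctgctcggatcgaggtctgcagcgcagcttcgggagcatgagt

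MCM6 carries 4 E2F words, which lie as overlapping words of both strands in a pair of separate stretches. GINS2 carries 1 E2F word and CDK1 carries 1 E2F word with 3 CHR words. KIF11 and PLK1 each carry 1 CHR word and 1 CCAAT box. RRM2, the gene with the largest fall among the replication genes, carries neither an E2F word nor a CHR word in this window.

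The letters searched were TTTCCCGC, TTTCGCGC, TTTGCCGC and TTTGGCGC for E2F, TTTGAA for CHR, CCAAT for the CCAAT box, GGGCGG for the GC box, and the NRF1 motif, each on both strands. Of the 48 genes, 41 had a promoter entry, 21 replication and 20 mitosis genes. An E2F word was present in 13 of 21 replication promoters (61.9%) and in 2 of 20 mitosis promoters (10%), CDK1 and CENPA, against 4.10% of all 22199 protein-coding promoters. The CHR word showed the opposite split, with 1 of 21 replication promoters (4.76%), that of RRM1, and 15 of 20 mitosis promoters (75%), against 12.4% of all. CCAAT boxes were found in 61.9% of replication and 85% of mitosis promoters, against 34.7% of all. GC boxes (71.4%, 75% and 56.3%) and the NRF1 motif (28.6%, 20% and 7.39%) separated both classes less from each other. E2F words of replication genes were centred 35.5 bases before the annotated start and CHR words of mitosis genes 26 bases before it, as medians. A GC box shared bases with 2 of the 21 E2F words, those of PCNA and CENPA. Median GC content was 63.3% in replication, 61.3% in mitosis and 62.3% in all promoters. A match is a run of letters and not evidence of binding, and no match says only that these letters are not in the window.

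**Figure D1:**
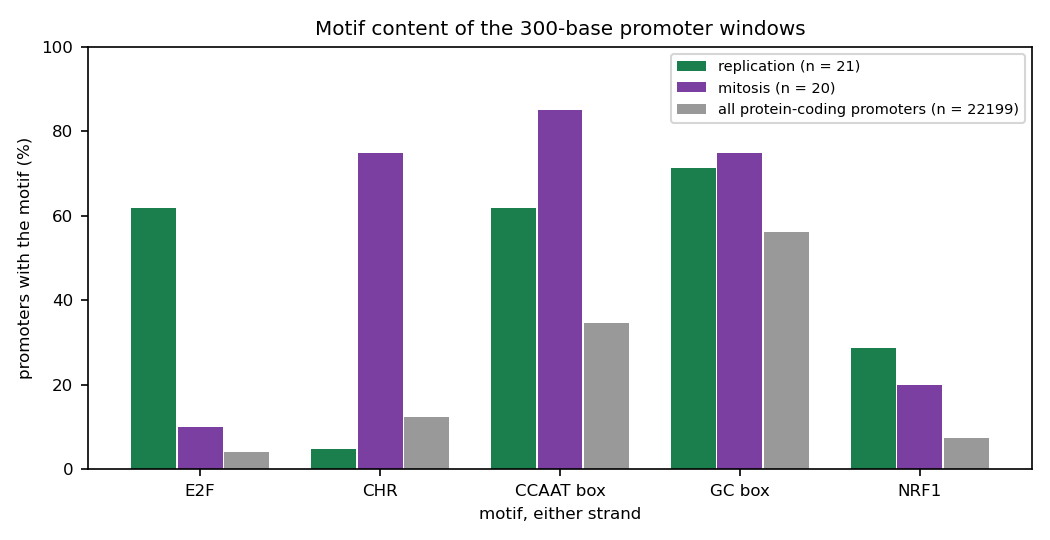
Share of the 300-base promoter windows that hold each motif on either strand (y axis, percent) for 21 replication promoters, 20 mitosis promoters and all 22199 protein-coding promoters. E2F words were present in 61.9% of replication and 10% of mitosis promoters, and CHR words in 4.76% and 75%.

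Read counts in the listed sites summed to between 12258890 (6 h replicate 1) and 35548737 (72 h replicate 2) per library. At 0 h the start sites ranged from 4.78 CPM (the count scaled to library size) at RACGAP1 to 237 CPM at CDC45. All 48 genes had a start site, and 47 of the 48 start sites overlapped a deposited peak in all 6 libraries. RACGAP1 was the exception, with a peak in the 0 h libraries only. For 7 genes without a promoter entry (MCM4, MCM5, TTK, RACGAP1, BIRC5, TPX2 and AURKA) the start site was the strongest site within 1000 bases of either gene end, since the strand was not given. Another gene's start lay within 1000 bases of 8 start sites, as AP4M1 beside MCM7, TPRA1 beside MCM2 and CSTF1 beside AURKA, and reads there cannot be divided between the genes. Neighbours could be found only where they had a promoter entry, so 8 is the least number of shared start sites.

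With TMM scaling, the start sites of both classes were less accessible after PMA, a little at 6 h and more at 72 h. Calls are from edgeR's quasi-likelihood test on all 177759 tested sites with TMM scaling, at a Benjamini-Hochberg adjusted p under 0.05. At 6 h, 14 of 23 replication and 17 of 25 mitosis start sites were called lower and none higher. The median log2 fold change was −0.44 in replication and −0.45 in mitosis genes. Among all tested sites 16.8% were called lower and 23.4% higher, with a median of 0.05, and among 19045 other sites at the ends of protein-coding genes 36.1% were called lower. At 72 h against 0 h all 48 start sites were called lower, with medians of −1.50 in replication and −1.38 in mitosis genes, or 2.82-fold and 2.60-fold. The backgrounds were 29.2% lower and 38.2% higher among all sites, with a median of 0.29, and 68.6% lower at other gene ends. Between 6 h and 72 h, 22 replication and 25 mitosis start sites were called lower, where 20.9% of all sites were lower, 22.1% higher, and 60.6% lower at other gene ends. A fall in bulk libraries does not tell fewer cells with an open site from less opening per cell.

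The number of calls at 6 h rested on single libraries. Without 6 h replicate 1, the shallowest library, 9 replication and 9 mitosis start sites were called lower, and without 0 h replicate 2 the mitosis count was 7. At 72 h against 0 h no omission of a library removed a call.

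**Figure D2:**
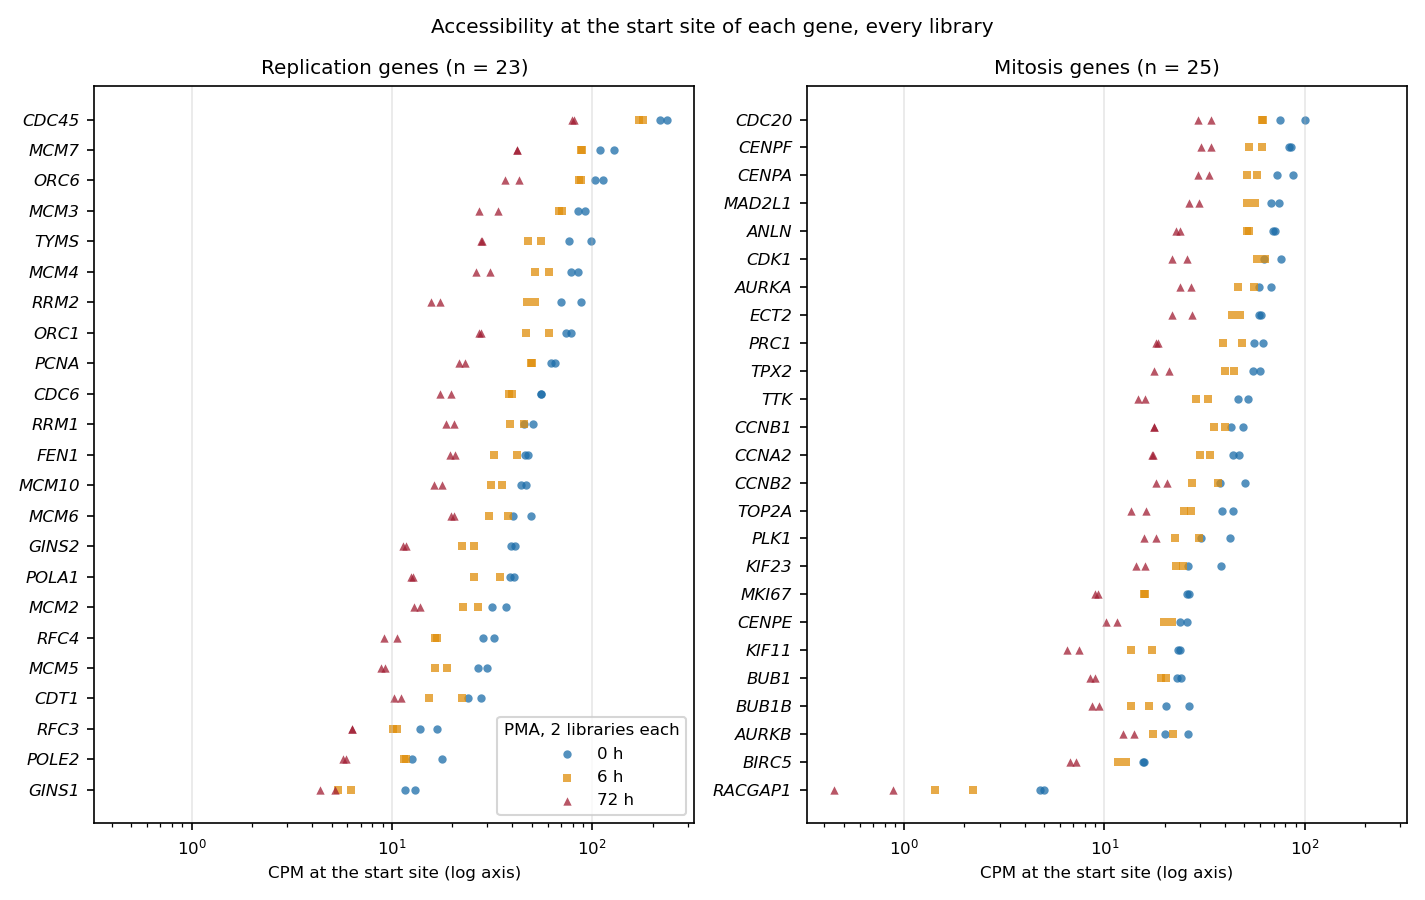
CPM at the start site of each gene (x axis, log scale) in every library, for 23 replication genes on the left and 25 mitosis genes on the right, ordered by level. Both 72 h libraries lie below both 0 h libraries at every gene, and the widest drops are at RACGAP1 and RRM2.

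The falls were then set against other gene ends of the same strength. For each start site, the median log2 fold change of the 500 other gene-end sites nearest in 0 h CPM was subtracted, and the result is called the offset. At 6 h the median offset was −0.02 in replication genes and −0.01 in mitosis genes. On average 62.8% of the comparison sites of replication genes and 58.4% of those of mitosis genes were called lower, close to the 60.9% and 68% of the start sites themselves. At 72 h the median offsets were −0.02 and 0.01, with 98.0% and 97.0% of comparison sites called lower on average. Mitosis minus replication came to 0.01 at 6 h and 0.03 at 72 h. The 72 h difference was 0.12 without start sites shared with another gene, and reached 0.090 on leaving out 72 h replicate 2. The median falls of both classes thus lay close to those of other gene ends with like signal. Genes are not replicates, and 2 libraries against 2 cannot give an exact permutation p below 0.33, so no test of these medians was made.

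**Figure D3:**
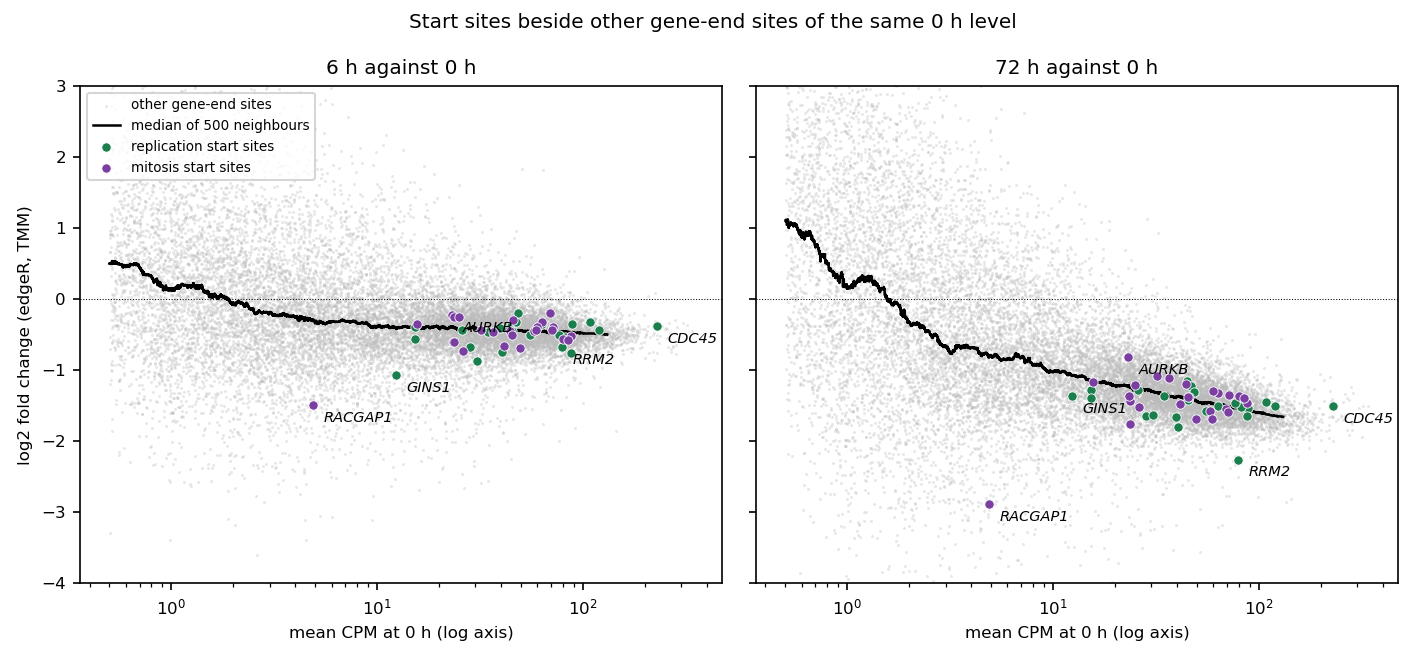
Log2 fold change (y axis, edgeR with TMM) against mean 0 h CPM (x axis, log scale) at 6 h and at 72 h, for replication start sites, mitosis start sites and other gene-end sites (grey, with the running median of 500 in black). Sites under 0.5 CPM and 76 sites at 6 h and 134 at 72 h beyond the y axis are not drawn. Most members lie along the black line, and RRM2 and RACGAP1 lie below it at 72 h.

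Few single genes stood apart from their comparison sites. At 72 h 3 of 48 start sites, those of RRM2, GINS2 and RACGAP1, had fallen further than 99.4%, 95.6% and 98.2% of their comparison sites. By its definition a mark of 95% leaves about 5% of sites beyond it, and 3 of 48 is near that share. The RACGAP1 site was also weak, with a peak in the 0 h libraries only. No start site lay above 95% of its own comparison sites at 72 h, and 44 of 48 lay within the middle 80%. At 6 h no start site was in the outer 5% on either side, and 41 of 48 lay within the middle 80%.

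The scale set how many falls were called. TMM, RLE, total counts, loess offsets and TMM factors taken from gene ends gave median log2 fold changes of all tested sites of 0.29, 0.11, 0.79, −0.04 and 1.43 at 72 h, and of 0.05, −0.10, 0.18, −0.10 and 0.39 at 6 h. Under loess offsets, which remove any trend with signal, 22 start sites were lower and 3 higher at 72 h (CDC45 by 0.67, ORC6 by 0.28 and MCM7 by 0.27), while CDC45 alone was higher among 14 called at 6 h. Of 10363 sites over gene starts outside the 48 genes, loess offsets called 5142 lower and 927 higher at 72 h. At 6 h the counts for these other gene starts were 2872 and 638. Under factors from gene ends, which set the typical gene end to no change, 23 were lower and 0 higher at 72 h (14 replication and 9 mitosis genes), and 5 lower at 6 h. Of the 10363 other gene starts, these factors called 3142 lower and 1502 higher at 72 h. At 6 h they called 796 lower and 921 higher. Median log2 fold changes of replication start sites at 6 h and 72 h were −0.20 and −0.32 under loess offsets, and −0.10 and −0.36 under gene-end factors. Those of mitosis start sites were −0.20 and −0.23 under loess offsets, and −0.10 and −0.24 under gene-end factors. Under loess offsets most of the median fall was thus present at 6 h, unlike with TMM. Called lower at 72 h under all 5 scalings were 6 replication genes (MCM5, CDC6, GINS2, RFC4, POLA1 and RRM2) and 6 mitosis genes (TTK, KIF11, TPX2, RACGAP1, PRC1 and MKI67). At 6 h these were GINS1, GINS2, RFC4 and RACGAP1. How many other gene starts were called lower under all 5 scalings was not counted.

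Among the genes that load and form the helicase, levels fell together with TMM scaling. MCM2 and MCM5, subunits of the MCM ring, gave 31.7 and 37.1 CPM and 26.8 and 29.7 CPM at 0 h, and 13.8 and 12.9 and 8.83 and 9.23 CPM at 72 h. All 6 MCM ring genes fell at 72 h, by log2 fold changes from −1.65 (MCM5, adjusted p = 5.35e-08 by edgeR) to −1.15 (MCM6, adjusted p = 1.97e-06 by edgeR). Under loess offsets only 2 of the 6, MCM2 and MCM5, were called lower. On that scale MCM7 was called higher (0.27), and MCM3 (0.04), MCM4 (−0.02) and MCM6 (−0.03) were not called. MCM6 read 40.04 and 49.3 CPM at 0 h, then 30.7 and 37.9 at 6 h, then 19.8 and 20.4 at 72 h, an offset of 0.24, whereas MCM5 had an offset of −0.37. The 6 h libraries of MCM6 lay below both 0 h libraries, but the change was not called (−0.38, adjusted p = 0.0645 by edgeR). CDC6, which brings the helicase to origins, fell at both times (−0.50 and −1.57), while its partner CDT1 had 23.9 and 27.8 CPM at 0 h, then 15.3 and 22.4 at 6 h, then 11.1 and 10.2 at 72 h, with a call at 72 h alone. The origin recognition genes ORC1 and ORC6 had log2 fold changes of −1.47 and −1.44 at 72 h, with offsets of 0.07 and 0.18, and share their sites with PRPF38A and VPS35. Under loess offsets ORC6 was called higher at 72 h (0.28).

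The genes that switch the helicase on held both the strongest and the earliest site. CDC45 had 237 and 219 CPM at 0 h, then 179 and 171 at 6 h, then 79.5 and 81.1 at 72 h, the highest of the 48 start sites at each time. Its groups did not overlap, and its fold changes of −0.38 and −1.51 were 0.12 and 0.15 above those of its comparison sites, whose median level at 0 h was lower. Under loess offsets CDC45 was called higher at both times (0.37 and 0.67). GINS1, a subunit of the GINS complex, had 11.6 and 13.0 CPM at 0 h, then 5.37 and 6.27 at 6 h, then 5.18 and 4.39 at 72 h. Most of the GINS1 fall was present at 6 h (log2 fold change −1.07, SE 0.23, adjusted p = 0.000713 by edgeR), which is 78.1% of its 72 h fall of −1.37. It was the single start site not called between 6 h and 72 h (−0.30, adjusted p = 0.302 by edgeR). GINS2, of the same complex, read 39.3 and 41.4, then 25.8 and 22.5, then 11.8 and 11.4 CPM. It fell at every step, with −0.75 at 6 h, −1.80 at 72 h (adjusted p = 5.17e-09 by edgeR) and an offset of −0.44 at 72 h. Both GINS promoters hold an E2F word.

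At the fork, the clamp, its loader and the polymerases fell with the rest. The PCNA start site, which it shares with CDS2, had 61.9 and 65.0 CPM at 0 h, then 50.1 and 49.7 at 6 h, then 21.7 and 23.3 at 72 h. A further site inside the PCNA gene, at chr20:5119148-5120422, overlapped another annotated PCNA start and the antisense gene PCNA-AS1. It had 48.6 and 66.0, then 34.96 and 39.0, then 17.9 and 17.9 CPM. The PCNA sites had log2 fold changes of −1.50 and −1.68 at 72 h, both called lower, and at 6 h the inner site was called (−0.63, adjusted p = 0.00323 by edgeR) and the outer one was not (−0.35, adjusted p = 0.0525 by edgeR). RFC4, a subunit of the clamp loader, fell early: 28.4 and 32.5 CPM at 0 h, 16.9 and 16.4 at 6 h, 9.14 and 10.5 at 72 h. Its 6 h fold change of −0.87 lay below that of 93.6% of its comparison sites. POLA1, the primase-bearing polymerase, fell mostly after 6 h, with 38.7 and 40.5, 34.7 and 25.7, and 12.5 and 12.7 CPM. It was not called at 6 h (−0.40, adjusted p = 0.0567 by edgeR) and fell by 1.25 on the log2 scale from 6 h to 72 h (adjusted p = 6.11e-06 by edgeR). Whether RFC4 and POLA1 differed in time course was not tested. FEN1, the flap nuclease that trims Okazaki fragments, had one of the smaller replication falls at 72 h (−1.22, offset 0.19) on a site shared with TMEM258.

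The nucleotide supply genes differed among themselves, with 72 h fold changes from −2.26 to −1.30. RRM2, the small subunit of ribonucleotide reductase, had 69.8 and 88.2 CPM at 0 h, then 47.2 and 51.6 at 6 h, then 15.6 and 17.4 at 72 h. The RRM2 start site at chr2:10122008-10123047 thus stood 4.78-fold lower at 72 h, with no overlap between any of the groups (log2 fold change −2.26, SE 0.16, adjusted p = 2.94e-10 by edgeR). Its comparison sites fell by a median of −1.53, an offset of −0.72, and it was called lower under all 5 scalings, from −2.44 to −0.86. RRM1, the large subunit of the same enzyme, had 45.5 and 50.8, then 38.8 and 45.4, then 18.6 and 20.4 CPM. The RRM1 change at 6 h was the smallest among replication genes (−0.19, adjusted p = 0.334 by edgeR), and at 72 h it was −1.30, 0.10 above its comparison sites. TYMS, thymidylate synthase, had 76.2 and 99.1, then 47.9 and 55.7, then 28.1 and 28.0 CPM. It fell by 0.76 on the log2 scale at 6 h, an offset of −0.28, and at 72 h its offset was −0.07.

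Among cyclins and their kinase, CDK1 changed least at 6 h. CDK1 had 62.9 and 75.8 CPM at 0 h, then 58.1 and 63.3 at 6 h, then 21.7 and 25.9 at 72 h. The 6 h and 0 h libraries overlapped (−0.19, SE 0.15, adjusted p = 0.316 by edgeR), and the fall came between 6 h and 72 h (−1.35, adjusted p = 8.66e-07 by edgeR). With TMM scaling, 12.4% of its 72 h fall was present at 6 h, the lowest share of the 48 genes. The medians on that scale were 32.1% in replication and 33.9% in mitosis genes. Cyclin B1 (CCNB1) had 42.6 and 49.0, 40.1 and 35.1, and 17.7 and 17.8 CPM and was not called at 6 h (−0.29, adjusted p = 0.132 by edgeR), while cyclin A2 (CCNA2) read 43.7 and 46.8, 30.02 and 33.7, and 17.5 and 17.3 CPM and was called (−0.50, adjusted p = 0.0109 by edgeR). Whether CDK1 and CCNA2 differed at 6 h was not tested.

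The Aurora and Polo kinases AURKA, AURKB and PLK1 had a median 72 h fold change of −1.10, against −1.38 over all mitosis genes. Other kinases among the mitosis genes fell more, CDK1 by −1.54, BUB1 by −1.43 and TTK by −1.68. AURKB, the kinase of the chromosome passenger complex, had 20.1 and 26.2 CPM at 0 h, then 17.4 and 22.0 at 6 h, then 14.0 and 12.4 at 72 h. The AURKB fold change at 72 h, −0.81 (SE 0.19, adjusted p = 0.00058 by edgeR), was the least negative of the 48 and 0.40 above its comparison sites. PLK1, which drives spindle assembly and mitotic exit, had 30.4 and 42.4, 22.5 and 29.8, and 15.8 and 18.1 CPM, with −1.10 at 72 h and an offset of 0.26. AURKA, which matures spindle poles and shares its site with CSTF1, had 58.9 and 67.9, 55.9 and 46.3, and 23.9 and 27.0 CPM. Its offset was 0.16, so the 3 Aurora and Polo kinases lay above their comparison medians at 72 h. CDK1 and BUB1 lay below theirs, with offsets of −0.04 and −0.19. Under the gene-end scale the AURKB and PLK1 directions turned at 72 h, to 0.33 and 0.04, and under loess offsets that of AURKA to 0.05, none of them called.

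Checkpoint and spindle genes covered a wide range. BUB1, a checkpoint kinase, had 23.1 and 24.0 CPM at 0 h, then 19.2 and 20.2 at 6 h, then 9.01 and 8.52 at 72 h, and was called at 72 h (−1.43) but not at 6 h (−0.26, adjusted p = 0.244 by edgeR). TTK, the kinase upstream in the same checkpoint, fell at both times (46.3 and 52.1, 32.7 and 28.6, then 15.9 and 14.7 CPM, with −0.69 and −1.68). KIF11, the motor that pushes spindle poles apart, had 23.9 and 23.3 CPM at 0 h, then 13.6 and 17.4 at 6 h, then 6.47 and 7.46 at 72 h. The KIF11 fall of −1.76 at 72 h (adjusted p = 6.64e-08 by edgeR) exceeded that of 93.4% of its comparison sites, an offset of −0.52. KIF23, a motor of the central spindle, fell by 1.08 on the log2 scale at 72 h, from 26 and 38.2 to 14.4 and 15.95 CPM, an offset of 0.23, but read 0.06, not called, under the gene-end scale.

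RACGAP1, which pairs with KIF23 in the central spindle, needs its sites told apart. The site at its gene end, chr12:50033145-50033796, was weak, with 5.00 and 4.78 CPM at 0 h, then 2.22 and 1.42 at 6 h, then 0.880 and 0.448 at 72 h. That site had the largest fall of all start sites (−2.88, SE 0.37, adjusted p = 5.74e-07 by edgeR, at 72 h), from 77 and 100 reads to 34 and 19. The strongest RACGAP1 site lies inside the gene at chr12:50024785-50025932 and had 37.9 and 37.0, 26.1 and 25.8, and 12.2 and 12.5 CPM. This inner RACGAP1 site changed by −0.53 and −1.60, near the mitosis medians of −0.45 and −1.38.

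Genes of chromosome structure fell at both times. TOP2A, the topoisomerase that untangles sister chromatids, had 43.7 and 38.6 CPM at 0 h, then 25.1 and 27.1 at 6 h, then 13.5 and 16.1 at 72 h. MKI67, the Ki-67 protein that coats mitotic chromosomes, had 26.5 and 25.7, then 15.9 and 15.7, then 9.24 and 8.99 CPM. Log2 fold changes at 6 h were −0.65 for TOP2A and −0.72 for MKI67, and 44.5% and 47.7% of their 72 h falls were present by then. BIRC5, the survivin subunit of the passenger complex, had 15.8 and 15.5, 12.9 and 11.7, and 7.25 and 6.75 CPM and was called at 72 h (−1.16) and not at 6 h (−0.36, adjusted p = 0.151 by edgeR). The centromere genes CENPA, CENPE and CENPF had offsets between 0.08 and 0.17 at 72 h, and CENPF had 85.3 and 83.5 CPM at 0 h and 30.4 and 33.9 at 72 h.

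**Figure D4:**
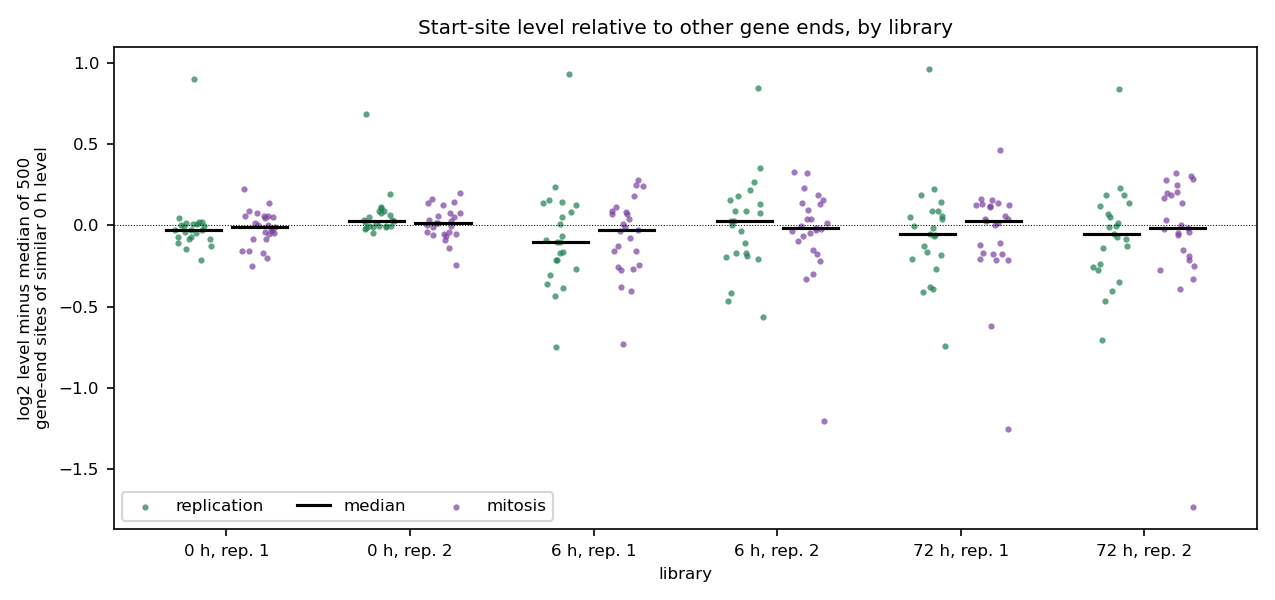
Start-site level in each library minus the median of the 500 gene-end sites of like 0 h level (y axis, log2), for replication and mitosis genes, with a bar at each class median. Class medians stay between −0.10 and 0.03 in all 6 libraries, the high point is CDC45, and the lowest points at 72 h are RACGAP1.

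Relative to the comparison sites, the class medians by library were −0.03 and 0.02 for replication and −0.01 and 0.01 for mitosis genes at 0 h. At 6 h they were −0.10 and 0.03 against −0.03 and −0.01, so the classes overlapped at both times. At 72 h they were −0.05 and −0.05 for replication against 0.03 and −0.01 for mitosis genes, which did not overlap but lay less than 0.1 apart.

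Motif content was then set beside the offsets, as a description. Replication genes with an E2F word had a median 72 h offset of −0.07 (13 of 21 genes), and those without had 0.09. At 6 h these were −0.0035 and 0.04. Mitosis genes with a CHR word had a median 72 h offset of 0.11 and those without 0.03, while at 6 h the order was the opposite, with −0.04 and 0.14.

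The sites other than the start sites went both ways. They include the inner PCNA site, which lies over a further annotated start. Of the 140 other sites, 27 were lower (19.3%) and 34 higher (24.3%) at 6 h, against 16.8% and 23.4% of all tested sites, while at 72 h the counts were 56 (40%) and 44 (31.4%), against 29.2% and 38.2% of all tested sites. At 72 h, 34 of 87 replication sites and 22 of 53 mitosis sites were lower, and 24 and 20 higher. This split moved with the scale, from 62 lower and 30 higher under loess offsets to 17 lower and 73 higher under gene-end factors. Of all 177759 tested sites, loess offsets called 58966 lower and 52418 higher, and gene-end factors 14316 lower and 109630 higher. Under all 5 scalings, 29 of the 140 other sites were higher and 16 lower. How many of all tested sites were called so under all 5 was not counted. At 72 h, sites overlapping the gene bodies were higher in 19 of 56 (33.9%, replication) and 16 of 31 (51.6%, mitosis). Among all sites away from gene ends 41.3% were higher. Sites past the gene's far end were lower in 11 of 16 (68.8%) and 8 of 13 (61.5%). At other gene ends 68.6% were lower, and away from gene ends 24.5%.

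The largest rises lay inside or beside genes whose start sites fell, as all 48 start sites did at 72 h. BUB1B, the checkpoint protein BubR1, had a site 29395 bases into the gene, at chr15:40190464-40191124, with 3 and 6 reads before PMA, 39 and 83 after 6 h, then 166 and 181 after 72 h. It rose by 3.54 at 6 h and 4.09 at 72 h on the log2 scale, from 0.195 and 0.287 to 4.30 and 4.27 CPM. The BUB1B start site fell by 1.37. A site 84046 bases into the annotated RRM2 gene, at chr2:10206785-10207789, had 0.845 and 1.72 CPM at 0 h, then 8.87 and 12.3 at 6 h, then 8.08 and 7.79 at 72 h. This RRM2 site rose by 3.02 and 2.58, opposite to the start site. At MCM5, a site inside the annotated gene at chr22:35446113-35446901 had 0.585 and 1.2, 4.95 and 8.92, and 4.84 and 6.73 CPM, with rises of 2.95 and 2.64. MCM6 had an inner site at chr2:135843565-135844674 that rose late, with 0.650 and 0.717 CPM at 0 h, then 1.79 and 1.61 at 6 h, then 4.45 and 5.99 at 72 h (1.28 and 2.92). The site 3702 bases before CDC6, at chr17:40283652-40284177, rose by 3.69 at 6 h and 3.12 at 72 h but overlaps WIPF2, so its assignment to CDC6 is by distance only. These 5 sites were chosen as the largest called rises with a mean of at least 2 CPM over all 6 libraries. At 0 h the BUB1B, RRM2, MCM5 and MCM6 sites were under 2 CPM in both libraries, so they passed that mark through the PMA libraries. All 5 were called higher at 72 h under all 5 scalings, which is not separate support for sites chosen by their calls.

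Large falls away from the starts were often at neighbouring genes. The site at chr7:100091259-100092227, past the end of MCM7 and 444 bases from an end of COPS6, had 17.9 and 22.3 CPM at 0 h, then 6.74 and 6.83 at 6 h, then 2.69 and 2.34 at 72 h. It fell by 3.0 on the log2 scale at 72 h (adjusted p = 6.52e-10 by edgeR). At the far end of RFC4, chr3:186789882-186791686, which also overlaps EIF4A2, levels were 33.1 and 41.2, 25.8 and 23.9, and 7.61 and 6.21 CPM, and the fall of −2.43 at 72 h came mostly after 6 h (−0.58). A site past GINS2 that overlaps GSE1 changed by −1.37 and −2.42, and a site before RRM1 that lies in STIM1 by −2.14 and −2.12. BUB1 had a site 966 bases upstream, at chr2:110679029-110679796, with 14.6 and 8.37, 3.67 and 4.37, and 3.37 and 3.26 CPM, so most of its fall was present at 6 h (−1.48) while the BUB1 start site had not been called by then. Inside RACGAP1, chr12:50018882-50019470 behaved in the same manner (−1.81 at 6 h and −1.86 at 72 h, the latter not called under gene-end factors).

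**Figure D5:**
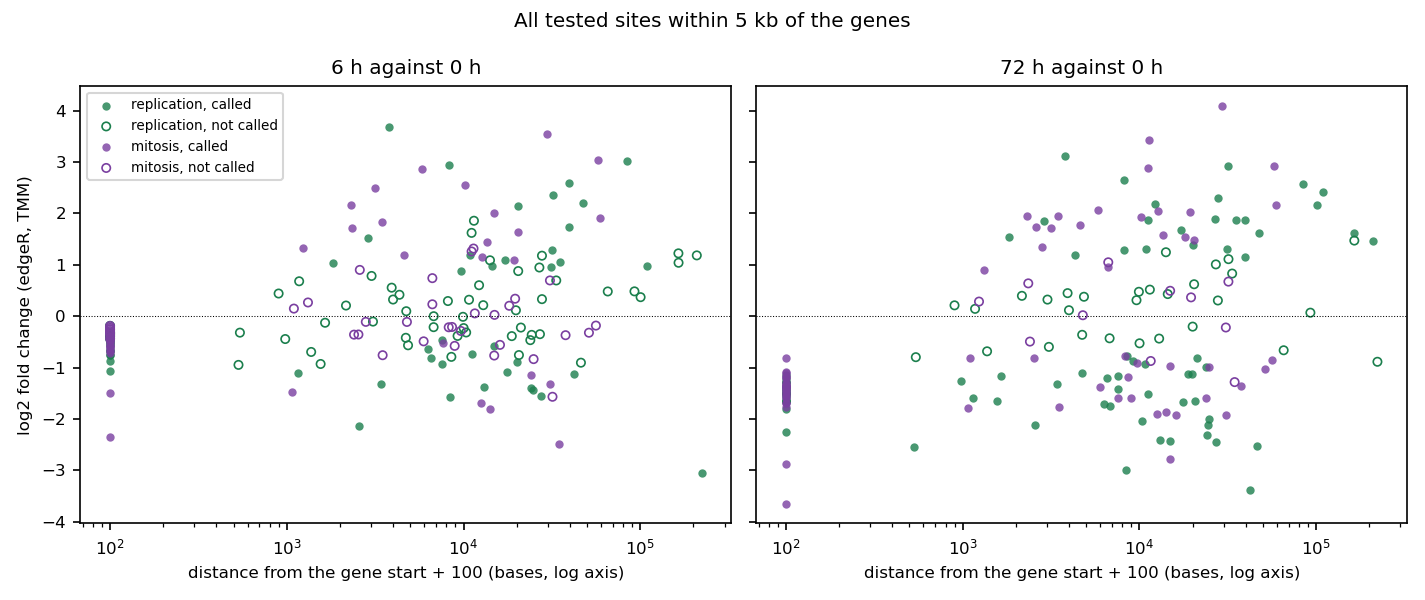
Log2 fold change (y axis) of all 188 tested sites against distance from the gene start plus 100 bases (x axis, log scale), at 6 h and at 72 h, with filled points for called sites and open points for sites not called. Sites over a start stack at the left edge, where every start site is below 0, and sites farther out lie on both sides of 0. Where the strand was not given, distance is to the nearer gene end.

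Other genes of both pathways were counted in the same way, beside 10363 gene-start sites outside the 48 genes, of which 48.0% were called lower at 6 h and 87.0% at 72 h. Of 37 further replication genes, 36 had a start site, and 19 were called lower at 6 h, 35 at 72 h and none higher, with a median 72 h offset of −0.04. Of 41 further mitosis genes all had one, with 26 and 40 called lower, none higher, and an offset of −0.03. Among the E2F, RB and DREAM regulators, 18 of 19 had a start site, with 11 and 18 called lower and an offset of −0.08. E2F1, the activator of replication genes, had 69.8 and 83.0 CPM at 0 h, then 49.0 and 53.0 at 6 h, then 23.1 and 23.6 at 72 h (−1.71, adjusted p = 2.86e-09 by edgeR). FOXM1, the activator of mitosis genes, had 20.02 and 20.5, 18.3 and 16.8, and 10.2 and 10.5 CPM (−0.97).

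For a check of the cell type, 7 of 9 erythroid genes, which K562 expresses, had a start site, and all 7 were called lower at 6 h and at 72 h with median offsets of −0.45 and −0.47. From 6 h to 72 h, 4 of these 7 were called lower, with a median offset of 0.01. GATA1, a transcription factor on the erythroid list, had 13.5 and 12.8 CPM at 0 h and 2.81 and 3.61 at 6 h. Sites near lymphoid genes were found for 3 of 4, with a median of 6.30 CPM at 0 h. Megakaryocyte genes had a start site for 2 of 5, and both were called lower at 72 h with a median offset of 0.50, so they fell less than like gene ends. Between 6 h and 72 h 1 of them was called lower and 1 higher, with a median offset of 0.79. The 3 lymphoid genes had median offsets of 0.57 at 72 h and 0.89 between 6 h and 72 h. Positive offsets were thus not particular to the megakaryocyte genes. The part of these marker changes in the cycle-gene values was not tested.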

How the data were processed

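Accessibility was measured in 6 ATAC-seq libraries of K562 cells. Reads were processed with Trim Galore 0.4.3, BWA 0.7.17, SAMtools 1.9, MACS2, bedtools 2.26 and deepTools 3.0.1 on hg38, per the submitters' processing notes. Whether reads were shifted for the transposase is not given in the sources used here. The deposited table holds raw read counts per site. The authors' log2 fold changes and adjusted p-values come from the same deposited table, whose processing notes name DESeq. The deposited peak lists, called per library, give a score, a fold enrichment ratio and −log10 p and q values per peak, as the authors' caller wrote them. Deposited starts count from 0 and were raised by 1.

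Counts were fitted over all 6 libraries with edgeR 4.0.16 (R 4.3.3, quasi-likelihood, TMM, filterByExpr), which kept 177759 of 181135 sites, and p-values were adjusted by Benjamini-Hochberg over all of them. The fit and the offsets were tested on simulated data. Total counts of 12258890 to 35548737 per library set the precision. Comparison sites lay no more than 1000 bases from a protein-coding gene's start or end, by RefSeq coordinates of GRCh38.p14. Other scalings, DESeq2 1.42.0, filters, reaches and comparison sites were tried as alternatives. The members, gene lists and alternatives were chosen with earlier results of these data known.

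Named were 16 fixed genes (MCM2, MCM5, CDC6, CDT1, PCNA, RRM2, TYMS, CDK1, CCNB1, CCNA2, AURKA, PLK1, BUB1, TOP2A, MKI67 and BIRC5). To these were added, per class at 6 h and 72 h, the 3 start sites with the lowest and the 2 with the highest fold change, the 4 largest called rises and falls away from starts with a mean of at least 2 CPM, and any start site called higher. Other names given with values (CDC45, MCM3, MCM7, ORC1, the BUB1B start site, CENPA, CENPE, CENPF, GATA1, E2F1, FOXM1 and the inner RACGAP1 and PCNA sites) were chosen after their values were seen.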

Additional observations from a re-analysis of the deposited data

How the results depend on the processing

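No setting tried here changed the depth. DESeq2 kept every count within 1.5 times. With all 5 scalings in view, at 6 h the replication count of 14 was 4 with gene-end factors, 6 with loess offsets, 9 with total counts and 22 with RLE, and 1 at adjusted p under 0.01 with a log2 fold change beyond 1. The mitosis count of 17 was 9, 7 and 1 under total counts, loess and gene-end factors, and 1 at the stricter call. At 72 h against 0 h loess gave 11 and 11, and gene-end factors 14 replication and 9 mitosis start sites. At 72 h against 6 h gene-end factors gave 6 and 3, loess 3 and 3, and the stricter call 10 and 9. For all sites within 5000 bases, gene-end factors gave 15 of 58, 40 of 104 and 14 of 83 for the 3 contrasts, loess 51 for the last, and the stricter call 11 and 33 for 6 h against 0 h and 72 h against 6 h.

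Leaving out 1 library gave 9 to 21 replication, 7 to 19 mitosis and 33 to 68 nearby sites at 6 h, 23 to 23, 25 to 25 and 93 to 106 at 72 h against 0 h, and 20 to 22, 20 to 25 and 57 to 87 at 72 h against 6 h. Median offsets then ranged from −0.10 to 0.025 (replication) and −0.022 to 0.027 (mitosis) at 6 h, from −0.064 to 0.011 and −0.0052 to 0.036 at 72 h, and from −0.062 to 0.035 and 0.014 to 0.076 between them, with differences of the classes from −0.041 to 0.078, 0.026 to 0.090 and −0.0061 to 0.10. Without start sites shared with another gene, the 72 h replication offset was −0.12 and the difference 0.12. With only genes that have a promoter entry, added after seeing the data, the mitosis offset was 0.057 and the difference 0.080. With comparison sites matched on all 6 libraries, the mitosis offset between 6 h and 72 h was 0.034.

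The replicate numbers were not shown to pair samples: same-numbered deviations correlated by 0.15, 0.09 and 0.14. With the replicate block, 21 replication and 19 mitosis start sites were called lower at 6 h, 23 and 25 at 72 h, and 22 and 25 between them.

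Among the sites chosen by the naming rule, signs turned in these cases, where the cause was not tested. At start sites, for 6 h against 0 h, these became under gene-end factors CDK1 0.15, CCNB1 0.054, AURKA 0.028, BUB1 0.085, ORC6 0.022, RRM1 0.15, FEN1 0.014, AURKB 0.12, and under loess offsets PCNA 0.017, CDK1 0.21, AURKA 0.059, ORC6 0.22, RRM1 0.10. At start sites, for 72 h against 0 h, these became under gene-end factors PLK1 0.039, AURKB 0.33, KIF23 0.061, and under loess offsets AURKA 0.054, ORC6 0.28. At start sites, for 72 h against 6 h, these became under gene-end factors PLK1 0.16, MKI67 0.0013, GINS1 0.50, RFC4 0.040, MCM6 0.018, AURKB 0.21, KIF23 0.15, and under loess offsets TYMS 0.18, PLK1 0.14, ORC6 0.062, MCM6 0.090, AURKB 0.050, KIF23 0.084, and under total counts GINS1 0.070. At sites away from starts, for 72 h against 6 h, these became under RLE RRM1 −0.025, and under gene-end factors RACGAP1 0.74, BUB1 0.50, MCM5 0.49, RRM2 0.36, CDC6 0.23, and under loess offsets RRM1 −0.37, and under total counts RACGAP1 0.31, BUB1 0.067, MCM5 0.057. Of these, ORC6 at 72 h under loess offsets was called. Outside that rule, CDC45 was called higher under loess offsets at 6 h (0.37), 72 h (0.67) and between them (0.30), and MCM7 at 72 h (0.27). Leaving out 1 library, the 72 h against 6 h values ranged from −0.63 to 0.28 at the inner MCM5 site, −0.10 to 0.095 at the RACGAP1 site at chr12:50018882-50019470 and −0.39 to 0.60 at the site before RRM1.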

Other observations

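In the authors' deposited table, the log2 fold change against 0 h was negative at all 48 start sites at both times. The class name in the authors' deposited table was static for 22 replication and 24 mitosis start sites. It was upLate for RRM2, at −0.80 and −2.42 in the authors' deposited table, and for RACGAP1, at −1.46 and −3.01, so the class name did not follow the direction of these changes.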
